A study of Zea mays with 6 samples.

Results

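Transcripts of 4 pathogenesis-related (PR) protein genes were followed in leaves of maize seedlings 2 weeks old, in the inbred line KN5585 (WT, 3 libraries) and in PP2CKO, a line made from KN5585 by genome editing in which ZmPP2C45, a protein phosphatase of the 2C type, is knocked out (3 libraries). The genes were chosen by identifier among the 45953 features of the deposited count table: PR1 (Zm00001d018738), PR5 (Zm00001d031158), PR10 (Zm00001d028815) and PR10.1 (Zm00001d028816), a tandem copy of PR10 with the next identifier number. The names are those given to these B73 v4 identifiers when the genes were chosen. The count table holds identifiers without names, so the names, and the leaf origin by marker genes, were not checked against an annotation here. No treatment is named for either line, so the values are those of seedlings not described as infected or fed upon. The labels do not say how many edited events the knockout line stands for, or whether a library is 1 plant or a pool, and the spread between libraries that p-values rest on may therefore be technical.

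PR proteins are a mixed set of plant proteins grouped by the fact that they accumulate after attack by pathogens. PR1 belongs to a family of small secreted proteins and is widely used as a marker of salicylic acid responses. PR5 proteins resemble the sweet protein thaumatin, and several members of this family inhibit fungal growth. PR10 proteins stay inside the cell, belong to the family of the major birch pollen allergen, and include members with ribonuclease activity. Protein phosphatases 2C remove phosphate from serine and threonine residues, and members of the family hold back hormone and stress signalling in plants. The title of the series names ZmPP2C45 and ZmBELL4 as suppressors of biochemical defence against insect herbivores, and the comparison asks here whether transcripts of a set of genes known from defence against pathogens differ when ZmPP2C45 is lost.

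Each library held between 15923668 and 20502449 counts. The first principal component of log2 CPM, where CPM are counts scaled to a common total for all libraries, carried 44.0% of the variance and separated the lines. The second carried 18.9% and set PP2CKO replicate 1, at 58.1, apart from PP2CKO replicates 2 and 3, at -40.3 and -17.7. The WT libraries lay between -7.46 and 8.89 on it. The 3 PP2CKO libraries therefore differed among themselves, and the values below are given for each library.

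All 4 transcripts had a lower mean in the knockout, and none of them was called. A feature was called at an edgeR quasi-likelihood adjusted p below 0.05, adjusted over all 21206 features tested. Of the members 0 of 3 tested were called, where 7.23% of all tested features were called and 2.08% were called lower in PP2CKO. At an unadjusted p below 0.05 all 3 were lower, as were 10% of all tested features. DESeq2 called 1 of the 3, PR10, which was lower. It called 10.5% of all tested features in either direction, 703 of 21206 lower and 1525 higher. limma voom called 0 of the 3 and 5.73% of all tested features. Features of low counts were left out before testing, and PR10 passed only through its WT libraries. Its low value is therefore in part fixed by that filter. PR10.1 had too few counts to be tested. No member had a value above the WT mean in any PP2CKO library. In bulk leaf RNA, fewer cells expressing a gene and less RNA per cell cannot be told apart.

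**Figure D1:**
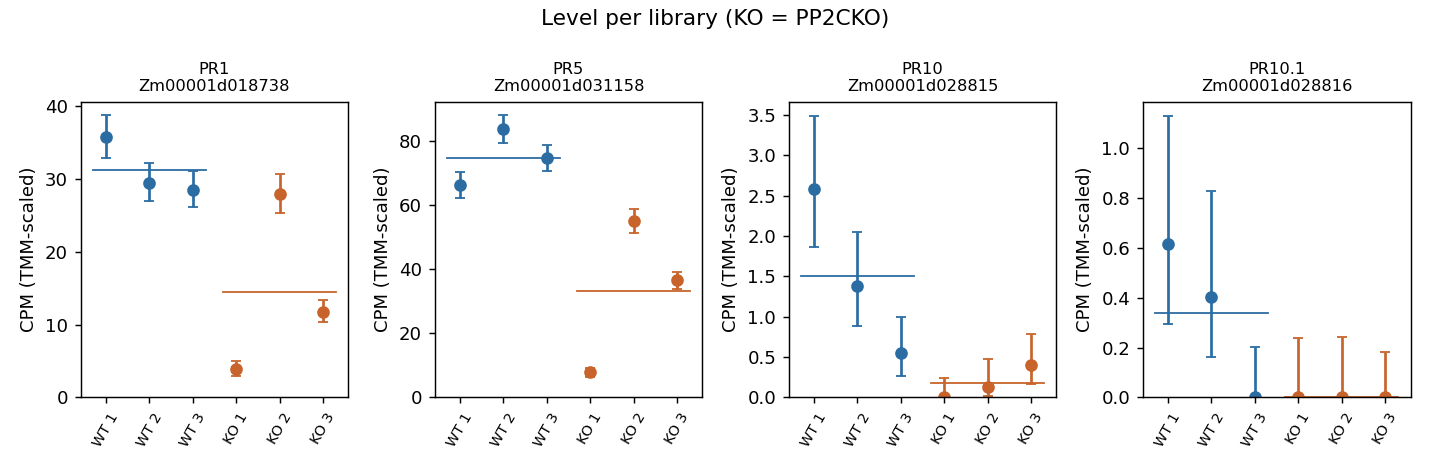
Level of each gene in each library, in CPM scaled by TMM on a linear axis from 0. Points are single libraries with the exact 95% Poisson interval of their count, horizontal lines are the means of 3 libraries, and KO stands for PP2CKO; PP2CKO replicate 1 is the lowest library for PR1 and PR5 and has 0 counts for both PR10 genes.

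PR1, the secreted marker of salicylic acid responses, stood at 35.8, 29.5 and 28.5 CPM in WT replicates 1 to 3, from 582, 512 and 523 counts. In PP2CKO replicates 1 to 3 it stood at 3.85, 27.9 and 11.7 CPM, from 60, 425 and 236 counts. Each PP2CKO library lay below each WT library, but PP2CKO replicate 2 reached 89.3% of the WT mean and its counting interval of 25.3 to 30.7 CPM overlapped that of WT replicate 3, 26.1 to 31.1 CPM. PP2CKO replicate 1, at 12.3% of the WT mean, and replicate 3, at 37.6%, were lower by more than counting error.

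The mean level of PR1 was 31.2 ± 3.94 CPM over the 3 WT libraries and 14.5 ± 12.3 CPM over the 3 PP2CKO libraries (± SD). The fitted log2 fold change was -1.11 ± 0.46 (SE), or 2.16-fold lower, with a 95% interval of 1.09 to 4.29-fold. It did not pass the threshold (edgeR adjusted p = 0.166, unadjusted p = 0.0307). Without PP2CKO replicate 2 the difference was 3.95-fold (edgeR adjusted p = 0.0043), and without PP2CKO replicate 1 it was 1.59-fold (edgeR adjusted p = 0.224).

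PR5, the thaumatin-like gene, stood at 66.4, 83.9 and 74.7 CPM in WT replicates 1 to 3, from 1080, 1458 and 1370 counts. In PP2CKO replicates 1 to 3 it stood at 7.82, 55.0 and 36.6 CPM, from 122, 838 and 736 counts. The lines did not overlap, and no counting interval of a PP2CKO library, of which the highest ended at 58.9 CPM, reached that of the lowest WT library, which began at 62.5 CPM. The 3 PP2CKO libraries held 10.4%, 73.4% and 48.8% of the WT mean.

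The mean level of PR5 was 74.98 ± 8.76 CPM over the 3 WT libraries and 33.1 ± 23.8 CPM over the 3 PP2CKO libraries (± SD). The fitted log2 fold change of -1.18 ± 0.45 (SE), or 2.26-fold lower with a 95% interval of 1.16 to 4.42-fold, did not pass the threshold (edgeR adjusted p = 0.132, unadjusted p = 0.0208). Without PP2CKO replicate 1 it was 1.64-fold (edgeR adjusted p = 0.0648), and without PP2CKO replicate 2 it was 3.35-fold (edgeR adjusted p = 0.0291).

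PR1 and PR5 had the same order of libraries within the knockout, replicate 2 above replicate 3 above replicate 1. That order was also found in 17.3% of all tested features and in 15.9% of the 2846 features with each PP2CKO library below each WT library. Those 2846 features were 13.4% of all tested, and PR1, PR5 and PR10 were among them under TMM, RLE and upper-quartile scaling and with library size alone. The margin was smallest for PR1, with 28.5 CPM in the lowest WT library against 27.9 CPM in the highest PP2CKO library.

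PR1 and PR5 were both widely spread within the knockout. The highest PP2CKO library exceeded the lowest 7.25-fold for PR1 and 7.03-fold for PR5. Among the 11773 tested features with a mean of at least 10 CPM, the median of this ratio was 1.28, and 14 features, or 0.119%, had a ratio as high as that of PR1 or higher, PR1 included. For the ratio of PR5 the count was 16, or 0.136%, and in 15 of these 16 features PP2CKO replicate 1 was the lowest. Within WT the ratio was 1.25 for PR1 and 1.26 for PR5, and 58.6% and 56.7% of the same features varied as much or more. PP2CKO replicate 1 is also the library that stood apart on the second component, and the part this plays in the lower means was not tested beyond the values without it.

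**Figure D2:**
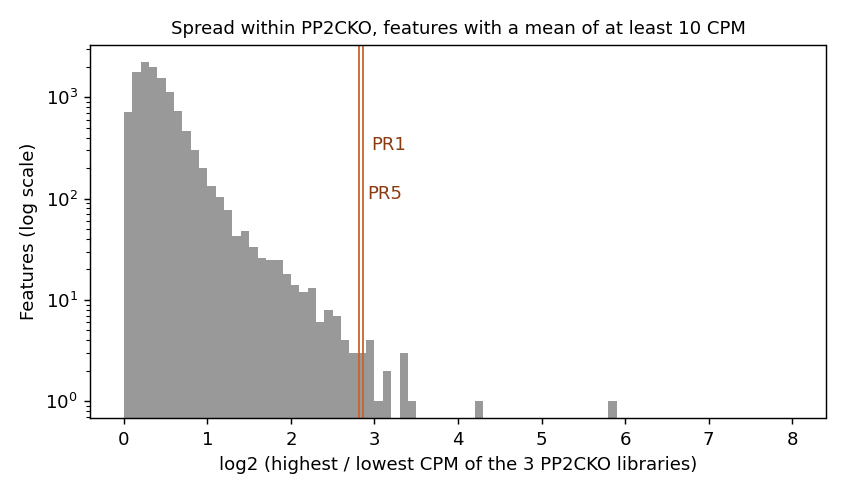
Histogram of the ratio of the highest to the lowest PP2CKO library, as log2, for the 11773 tested features with a mean of at least 10 CPM; the vertical axis is logarithmic. The lines mark PR1 and PR5, whose 7.25-fold and 7.03-fold ratios lie in the far right tail.

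The proportion of PR1 to PR5 was compared within libraries. For each 100 PR5 counts there were 53.9, 35.1 and 38.2 PR1 counts in WT replicates 1 to 3 and 49.2, 50.7 and 32.1 in PP2CKO replicates 1 to 3. These proportions ignore transcript length and serve only to compare libraries. The log2 ratio of PR1 to PR5 was -1.26 ± 0.33 in WT and -1.21 ± 0.37 in PP2CKO (SD, n = 3 each), a difference of 0.05 (exact two-sided permutation p = 1, Benjamini-Hochberg adjusted p = 1 over 4 ratios). The test could not pass 0.05 with 3 against 3 libraries, and it does not show that the 2 genes behaved alike.

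PR10, the intracellular member, was read near the limit of detection. It had 42, 24 and 10 counts in WT replicates 1 to 3, or 2.58, 1.38 and 0.545 CPM. In PP2CKO replicates 1 to 3 it had 0, 2 and 8 counts, or 0, 0.131 and 0.398 CPM. The lines did not overlap, but WT replicate 3 and PP2CKO replicate 3 lay close, with counting intervals of 0.261 to 1.003 and 0.172 to 0.784 CPM. The 0 counts of PP2CKO replicate 1 allow up to 0.237 CPM by the same interval.

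The mean level of PR10 was 1.50 ± 1.02 CPM over the 3 WT libraries and 0.176 ± 0.203 CPM over the 3 PP2CKO libraries (± SD), from 76 and 10 counts in all. The fitted log2 fold change was -2.95 ± 0.91 (SE), or 7.72-fold lower, with a 95% interval of 1.96 to 30.4-fold, and it did not pass the threshold (edgeR adjusted p = 0.0709, unadjusted p = 0.00684). DESeq2 gave an adjusted p of 0.0205, on the other side of the threshold. PR10 passed the filter on low counts only through its WT libraries, so with WT at the PP2CKO level it would not have been tested, and its low value is in part fixed by that filter. Without PP2CKO replicate 3 the fold was 20.7 (edgeR adjusted p = 0.0466), and without WT replicate 1 it was 5.03 (edgeR adjusted p = 0.296).

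PR10.1, the tandem copy, had 10, 7 and 0 counts in WT replicates 1 to 3, or 0.615, 0.403 and 0 CPM. It had 0 counts in each of the 3 PP2CKO libraries. The lines were thus alike in WT replicate 3 and PP2CKO, and the 17 counts of WT came from 2 libraries. Against a floor of 3 counts over the 3 PP2CKO libraries, or 0.0589 CPM, the WT level corresponded to 5.55-fold lower in PP2CKO. The floor covers the counting error of PP2CKO only. The 17 WT counts were taken without their own error, so the fold can be smaller than this value. The fold against the floor was 3.33 without WT replicate 1, 3.36 without PP2CKO replicate 3 and 8.58 without WT replicate 3. The floor stayed at 3 counts, so leaving out PP2CKO replicate 3, which had 0 counts, changed only the total that the floor was scaled by.

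Reads of tandem copies can be divided between them by the counting, so the PR10 pair was also taken as 1 sum. The sum held 52, 31 and 10 counts in WT replicates 1 to 3 and 0, 2 and 8 in PP2CKO replicates 1 to 3. Its log2 fold change was -3.24 ± 0.92 (SE), or 9.44-fold lower, and it lay just beyond the threshold (edgeR adjusted p = 0.0514, unadjusted p = 0.00379). The sum passed with DESeq2 (adjusted p = 0.00662), with robust edgeR (adjusted p = 0.0472), with library size alone (edgeR adjusted p = 0.0302) and without the low-count filter (edgeR adjusted p = 0.00727). It did not pass with RLE (edgeR adjusted p = 0.0531) or upper-quartile scaling (edgeR adjusted p = 0.0503). Nor did it pass with limma voom (adjusted p = 0.104) or with replicate number as a block. Like PR10, the sum passed the filter on low counts only through its WT libraries, so its low value is in part fixed by that filter. Without PP2CKO replicate 3 the sum was 25.4-fold lower (edgeR adjusted p = 0.0368), and without WT replicate 1 it was 6.08-fold lower (edgeR adjusted p = 0.239). PR10.1 took 19.2%, 22.6% and 0% of the pair in WT replicates 1 to 3 and 0% in PP2CKO replicates 2 and 3, while PP2CKO replicate 1 had no count of either copy. The mean share was 13.9% ± 12.2 in WT (SD, n = 3) and 0% in PP2CKO (n = 2), and no difference was shown (exact two-sided permutation p = 0.4, Benjamini-Hochberg adjusted p = 0.533 over 4 ratios).

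Whether PR10 differed between the lines by a larger factor than the other members was asked of the ratios within libraries, with 0.5 added to each count. The log2 ratio of PR10 to PR5 was -5.86 ± 1.18 in WT and -7.59 ± 1.02 in PP2CKO (SD, n = 3 each; exact two-sided permutation p = 0.2, Benjamini-Hochberg adjusted p = 0.4). The log2 ratio of PR10 to PR1 was -4.60 ± 0.95 and -6.38 ± 1.39 (exact two-sided permutation p = 0.2, Benjamini-Hochberg adjusted p = 0.4). The smallest p that 3 against 3 libraries allow is 0.1, so neither ratio could pass 0.05 and these tests do not settle the question.

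**Figure D3:**
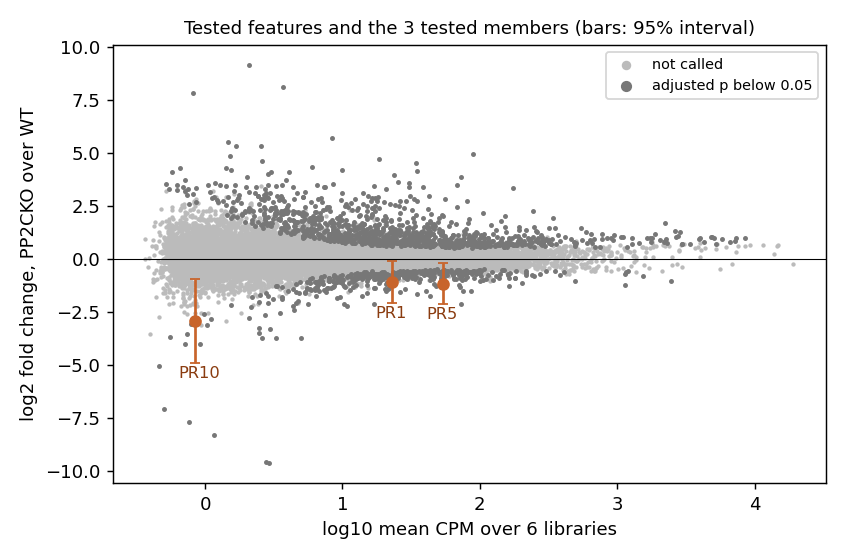
Log2 fold change of PP2CKO over WT against log10 mean CPM for all 21206 tested features, with PR1, PR5 and PR10 and their 95% intervals. The 3 points lie below 0, at -1.11, -1.18 and -2.95, with intervals that end below 0, and none is among the called features, drawn in dark grey.

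The calls of the members turned on the settings, while their direction did not. PR1 and PR5 passed the threshold when features of low counts were not filtered out, with edgeR adjusted p = 0.00526 and 0.00149 at almost the same folds of 2.17 and 2.27. PR10 passed it there too (edgeR adjusted p = 0.0261), and also with library size alone in place of TMM (edgeR adjusted p = 0.0426). The number of features called over the whole table rose in these settings as well. Without the filter, 2453 of 29079 features tested were called, against 1534 of 21206 (7.23%) with it, so more features were tested too. How far this rise accounts for the lower adjusted p of PR1 and PR5 was not tested. With library size alone, 1604 of 21206 were called lower and 680 higher, and the median log2 fold change of all features was -0.23. The highest adjusted p over all settings was 0.402 for PR1 and 0.367 for PR5. Every tested setting, including each library left out in turn, left PR1, PR5 and PR10 lower in PP2CKO. Each PP2CKO library lay below each WT library for these genes, so rescaling or leaving out a library could not turn the direction. The steady direction therefore adds no evidence of a lower level. Among all 21206 tested features, 10809 had a negative log2 fold change.

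**Figure D4:**
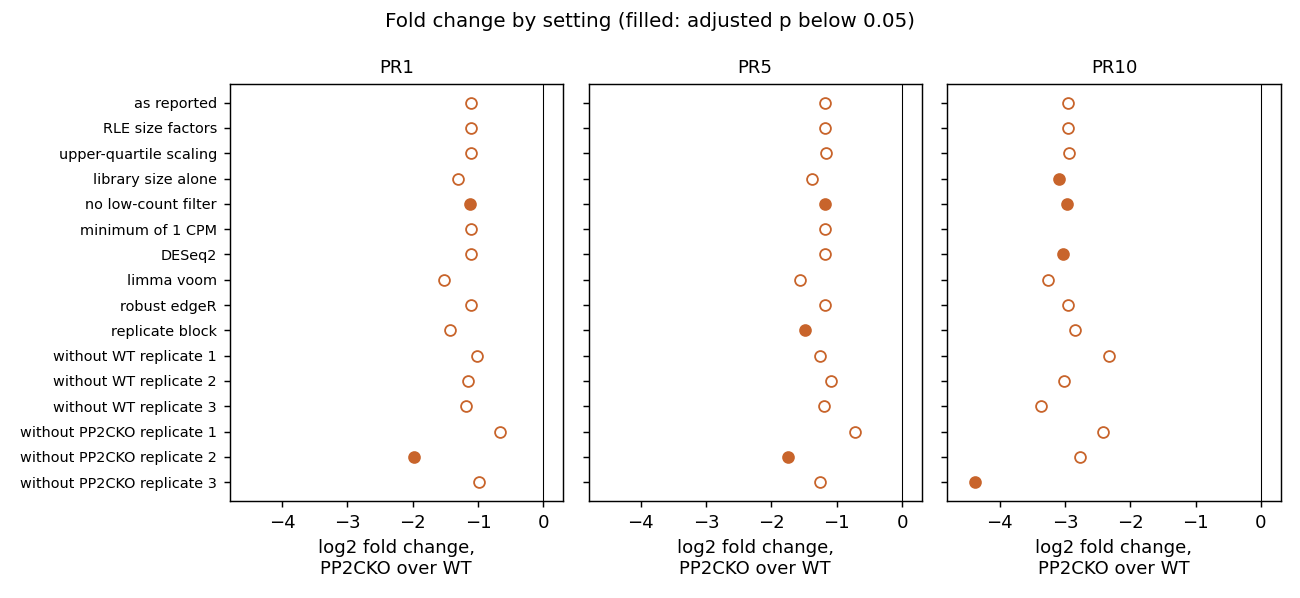
Log2 fold change of PP2CKO over WT for PR1, PR5 and PR10 under each setting, where filled points passed an adjusted p below 0.05 and open points did not. All points lie below 0; PR10 has no point with a minimum of 1 CPM, which it did not reach.

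Features with neighbouring identifier numbers were examined because the PR10 copies are consecutive. The feature just below PR10, Zm00001d028814, had 74, 34 and 34 counts in WT replicates 1 to 3 and 11, 8 and 40 in PP2CKO replicates 1 to 3. Its level was 2.79 ± 1.53 CPM over the 3 WT libraries and 1.07 ± 0.80 CPM over the 3 PP2CKO libraries (± SD), and the lines overlapped through PP2CKO replicate 3 at 1.99 CPM. Its log2 fold change of -1.34 ± 0.59 (SE) did not pass the threshold (edgeR adjusted p = 0.192). PP2CKO replicate 3 was the highest of its line, as for PR10. The lowest was PP2CKO replicate 2 at 0.525 CPM, where PR10 was lowest in PP2CKO replicate 1.

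Within 20 numbers of the PR10 pair, 23 of 36 other features were tested, of which 0 were called lower and 1 was called higher, with a median log2 fold change of -0.03. Around PR1, 17 of 33 were tested, of which 0 were called lower and 3 higher, with a median of -0.05. Around PR5, 6 of 25 were tested, of which 1 was called lower and 0 higher, with a median of -0.24. The median over all tested features was -0.01. The features just beside PR1 and PR5 had between 0 and 2 counts over all libraries. Of the 46 tested neighbours, 1 was called lower and 4 were called higher. Of all tested features, 2.08% were called lower and 7.23% in either direction. The positions of these features on the chromosome were not used here.

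**Figure D5:**
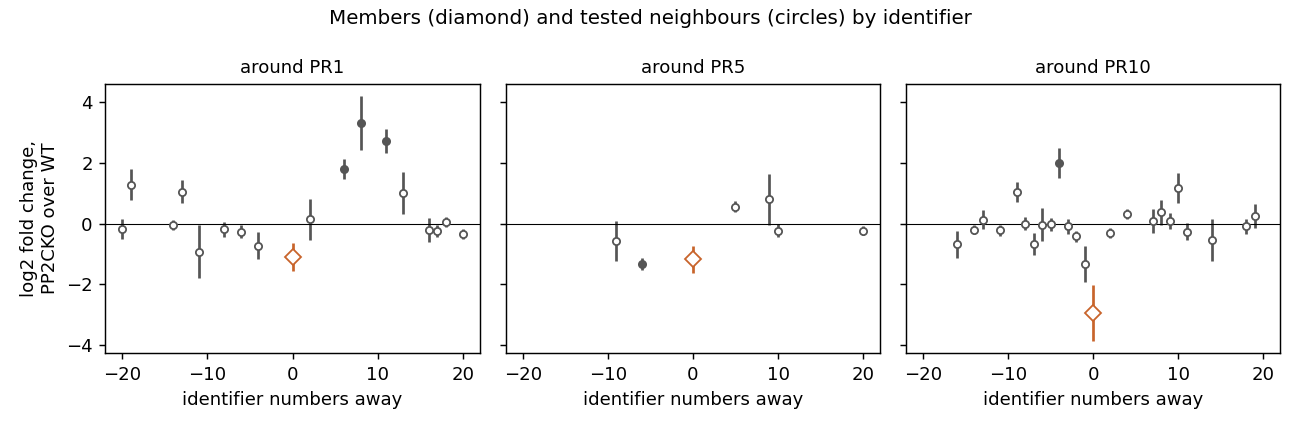
Log2 fold change (± SE) of PR1, PR5 and PR10, drawn as diamonds, and of the tested features within 20 identifier numbers, drawn as circles that are filled at an adjusted p below 0.05. The circles run from -0.92 to 3.31 around PR1, from -1.32 to 0.80 around PR5 and from -1.34 to 1.99 around PR10. The circle just left of PR10 is Zm00001d028814 at -1.34.

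Over the 6 libraries, the features most like PR1, PR5 and PR10 in log2 CPM were Zm00001d002580 and Zm00001d036370, with mean Pearson correlations of 0.94 for both. A further count put 106 features at a mean correlation of at least 0.9. These values are descriptive, since the 6 libraries fall into 2 lines and share their scaling. Zm00001d036370 stood at 187, 147 and 144 CPM in WT replicates 1 to 3 and at 31.9, 105 and 91.5 CPM in PP2CKO replicates 1 to 3, an order of libraries that its choice by correlation largely fixes. It was not called (log2 fold change -1.06 ± 0.32 SE, edgeR adjusted p = 0.0659). Zm00001d002580 stood at 34.2, 32.6 and 31.6 CPM in WT and at 19.6, 27.6 and 26.6 CPM in PP2CKO, and was not called either (log2 fold change -0.41 ± 0.17 SE, edgeR adjusted p = 0.169). The sources used here give neither identifier a name.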

How the data were processed

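Poly(A)-selected leaf RNA of 6 libraries was sequenced, and the authors deposited raw counts per gene, not normalized, 1 column per library. Per the labels' protocols, STAR 2.4.0j placed the filtered reads on B73 v4. How they were then counted, including annotation and strand, is not given in the sources used here. Reads from overlapping genes or of near-identical copies such as the PR10 pair may have been assigned together. Alignment to B73, another inbred line, can undercount genes that diverge in KN5585, in both lines alike. Replicates of 1 line differed by more than sampling noise (chi-square per degree of freedom of at least 19.2).

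The counts of all features were tested with edgeR 4.0.16 in R 4.3.3 (quasi-likelihood, genotype as the only term, TMM scaling, filterByExpr with a minimum count of 10 and total of 15). SEs and intervals were derived from the F statistic. CPM are counts divided by the TMM-scaled totals, times 1000000. Poisson intervals and floors cover counting error only. DESeq2 1.42.0, limma 3.58.1 (voom), other scalings and filters, a replicate block and leaving out each library served as alternatives. The procedure was tested on simulated data. The members, lists and alternatives were chosen with earlier results of these data known; the ratio of PR1 to PR5 and the other ratios with PR10, and the count of features by spread and library order, were added after the values were seen. The rule for names took the 4 members, the features beside them and the 2 features most like them. A list of 35 defence gene symbols had 16 in the reference table of assembly Zm-B73-REFERENCE-NAM-5.0, of which 0 were paired with an identifier of the count table, so no list of other defence genes or leaf markers is described. The planned edgeR test of PR10.1 was replaced by a bound because the gene did not pass the filter.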

Additional observations from a re-analysis of the deposited data

How the results depend on the processing

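The log2 fold changes of PR1, PR5, PR10 and the PR10 sum were negative in every alternative that gave a value (15, 15, 14 and 14 alternatives). The lines did not overlap for any of them, so rescaling or leaving out a library could not turn the sign. No gene had been called at first, so the changes of call were all gains. Without a low-count filter the values were -1.12 for PR1, -1.19 for PR5, -2.97 for PR10 and -3.26 for the sum, all past the threshold. Library size alone gave -3.09 for PR10 and -3.38 for the sum, and shifted the median of all features from -0.01 to -0.23. DESeq2 gave -3.03 and -3.32 for PR10 and the sum, and robust edgeR -3.24 for the sum. Leaving out 1 library gave -1.98 to -0.67 for PR1, -1.74 to -0.71 for PR5, -4.37 to -2.33 for PR10 and -4.67 to -2.60 for the sum. The replicate block brought PR5 past the threshold at -1.49 (edgeR adjusted p = 0.0248) and no other member, and with it 1860 features were called. Deviations of equal replicate numbers correlated at 0.0525, 0.0888 and 0.0847, and those of unequal numbers at -0.0705 to -0.00985. Each value for equal numbers was under the bound of 0.1, and equal numbers were therefore not treated as pairs. Whether equal numbers share a small effect was not tested. For PR10.1 the log2 fold against the floor was -2.47 (-3.10 to -1.73 without 1 library). Without the filter the fitted value was -5.57 (edgeR adjusted p = 0.119), which depends on the prior count. Neither value is a bound on the fold. The difference of the PR10.1 share, -13.9 percentage points (-20.9 to -9.62 without 1 library), turned to 0.57 as a log2 ratio with 0.5 added, where libraries with no count of either copy count as equal shares by construction. The number of features called, 1534 of 21206 tested, was 2453 of 29079 without a filter and 462 to 1550 without 1 library. DESeq2 called 2228. Of the calls, 1092 were higher and 442 lower, and with library size alone 680 and 1604. Other causes were not tested. Depth limits PR10 and PR10.1 most, with 86 and 17 counts in all.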
